A study of Saccharomyces cerevisiae with 9 samples.

Results

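The autophagy genes of budding yeast (Saccharomyces cerevisiae) are described here as the genes with an ATG symbol followed by a number. Of 5498 probe sets listed with 1 S. cerevisiae gene on the array, 34 met this rule, each for a different gene. All 34 exceeded the background threshold, so no member was left out of the tests. The RefSeq table holds 37 genes with such a symbol, and ATG42, ATG44 and ATG45 were not analysed here.

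Cells of BY4741, a laboratory strain, were grown to log phase in the rich medium YPD, washed and suspended in distilled water. One portion stayed unfrozen (0 h), and others spent 24 h or 48 h at -30 °C before a 10 min thaw in a 30 °C water bath. RNA enriched for poly(A) was hybridised to 9 Affymetrix Yeast Genome 2.0 arrays of 1 colour, 3 in each of the 3 groups. The frozen groups also differ from the unfrozen group by the thaw and by the time in water, so these and the freezing cannot be told apart. The labels mention both independent triplicates and 2 independent experiments, and p-values therefore reflect array-to-array spread that can include technical error.

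Autophagy encloses cytoplasm or selected cargo in a double membrane, the autophagosome, which fuses with the vacuole, where the content is broken down. The Atg1 kinase complex starts the process when nutrients run short, vesicles carrying Atg9 supply the first membrane, and a lipid kinase marks it. A pair of ubiquitin-like conjugation systems then attaches Atg8 to the membrane, and receptors tie cargo to Atg8. In growing yeast the same machinery runs the Cvt pathway, which delivers the enzymes aminopeptidase I and alpha-mannosidase to the vacuole.

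Values are log2 signals after each array was set to 1 common median over S. cerevisiae probe sets, called scaled log2 signal. A difference is the frozen mean minus the unfrozen mean on this scale unless stated, with its standard error (SE) from limma. A gene is said to have risen or fallen where its adjusted p was under 0.05 over all 5396 genes tested. As RNA was measured in bulk, a lower value for a transcript cannot tell fewer cells with the transcript from less of it per cell. A signal is not compared between probe sets, since each has its own brightness.

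The arrays differed in more than their group. Among S. cerevisiae probe sets the median signal as deposited was 201 on the dimmest array and 726 on the brightest, and replicate 3 of the 24 h (679) and of the 48 h group (726) were the brightest. Ribosomal RNA (rRNA), read by 17 control probe sets, had a median on the scaled log2 scale of 6.41 ± 0.84 in unfrozen arrays, 9.35 ± 1.28 after 24 h and 9.07 ± 1.24 after 48 h (SD, n = 3 each). All 6 frozen arrays (7.64 to 10.43) lay above the 3 unfrozen ones (5.45 to 7.02) in this measure. The part of the rRNA signal and that of freezing therefore cannot be told apart. The covariate values given below are a description and no test of it. The signal of the 3′ probe set of actin exceeded that of its 5′ probe set by 0.64 ± 0.11 in unfrozen arrays, 0.73 ± 0.09 after 24 h and 0.59 ± 0.19 after 48 h, a range within the spread between arrays. Of the genes deleted in this strain, URA3 averaged 0.68, LEU2 2.62 and MET17 2.04, which ranked at the 56.2, 97.8 and 92.7 percentiles among fission yeast probe sets, the background here. LEU2 thus lay above the background threshold of 2.21, so passing that threshold does not by itself show that a transcript was present.

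After 48 h frozen, 2 of the 34 autophagy genes rose and 0 fell. They were ATG9, which encodes the membrane protein of the vesicles that seed autophagosomes, and ATG34, which encodes a receptor for alpha-mannosidase. Over all genes tested 2.91% were called at 48 h, 2.09% higher and 0.815% lower, against 5.88% of the autophagy genes, so the count lies near the background. The calls depended on the scaling. With each array's median taken over every probe set, called whole-array scaling here, 0 genes were called higher and 1 lower (ATG26). Over all genes that setting called 4.91%. In the values as deposited and with the rRNA signal as a covariate 0 were called, against 1% and 0% of all genes. After 24 h frozen 0 of 34 passed by limma, where 1% of all genes were called, 0.797% higher and 0.204% lower. At an unadjusted p under 0.05, 5 were higher and 0 lower at 24 h, against 6.8% and 3.93% of all genes, and 9 were higher and 1 lower at 48 h, against 9.95% and 6.45%. A difference of at least 1 was reached by 0 genes at 24 h (2.71% of all genes) and by ATG1 and ATG9 at 48 h (3.78%).

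Short of that threshold, the gene group lay on the higher side relative to all genes. The median difference of the 34 genes was 0.13 at 24 h and 0.21 at 48 h, beside -0.02 and -0.03 over all genes, but it was -0.19 and -0.13 under whole-array scaling, where the medians of all genes were -0.34 and -0.37. The autophagy median exceeded that of all genes by 0.11 to 0.35 at 24 h and 0.15 to 0.33 at 48 h over the 23 alternatives tried for each. Many of these could not change the gap. A shift of whole arrays moves both medians alike, so the values as deposited and whole-array scaling left it at 0.155 and 0.237. Fits without a trend, of the compared groups alone or with a replicate block kept every difference. Their gaps are therefore no added support. At both times 23 of the 34 differences were above 0, and 20 genes were above 0 at both. Above 0 on the scaled log2 signal stood 47.3% of all genes at 24 h and 47% at 48 h. Under whole-array scaling 13 of 34 were above 0 at each time, and in the values as deposited 32 were at 24 h and 33 at 48 h. These counts follow a shift of all genes, whose medians as deposited were 0.28 and 0.40. The share of all genes above 0 was not counted in those scalings. The 24 h and 48 h comparisons share the unfrozen arrays, so their likeness is no second finding.

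**Figure D1:**
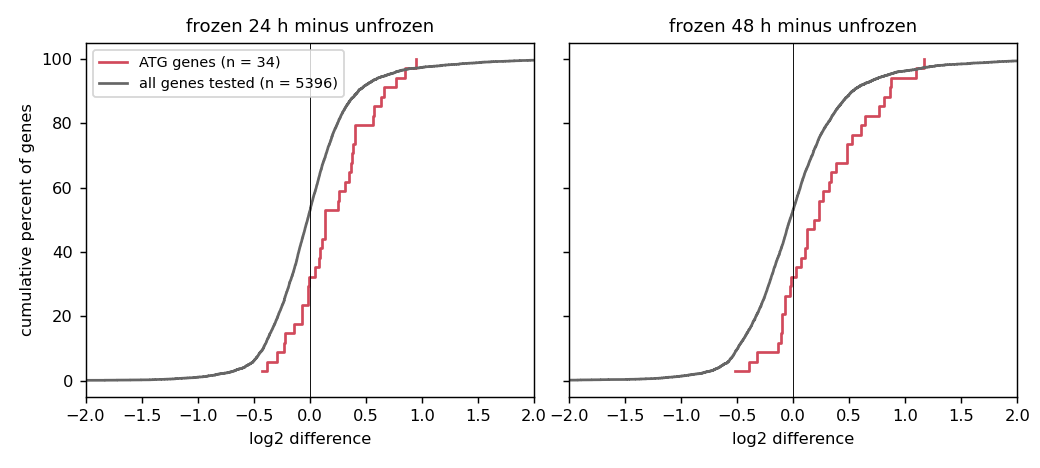
Cumulative percent of genes (y axis) against the log2 difference from unfrozen (x axis), for frozen 24 h (left) and frozen 48 h (right). The red line is the 34 autophagy genes and the grey line all 5396 genes tested. The red line lies to the right of the grey one over most of its course, with medians of 0.13 and 0.21 against -0.02 and -0.03, and both medians are below 0 under whole-array scaling.

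By array, the median autophagy gene stood above its unfrozen mean by 0.29, 0.10 and 0.32 in frozen 24 h replicates 1, 2 and 3, and by 0.45, 0.20 and 0.24 in frozen 48 h replicates 1, 2 and 3. The same measure over all genes lay between -0.06 and 0.09 on the 9 arrays. Between 19 and 25 of the 34 genes were above their unfrozen mean on each frozen array, beside 45.1% to 55.5% of all genes. On each unfrozen array 15 to 20 were, beside 46.3% to 52.4% of all genes. The unfrozen arrays make up that mean themselves, so their counts are no independent contrast.

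**Figure D2:**
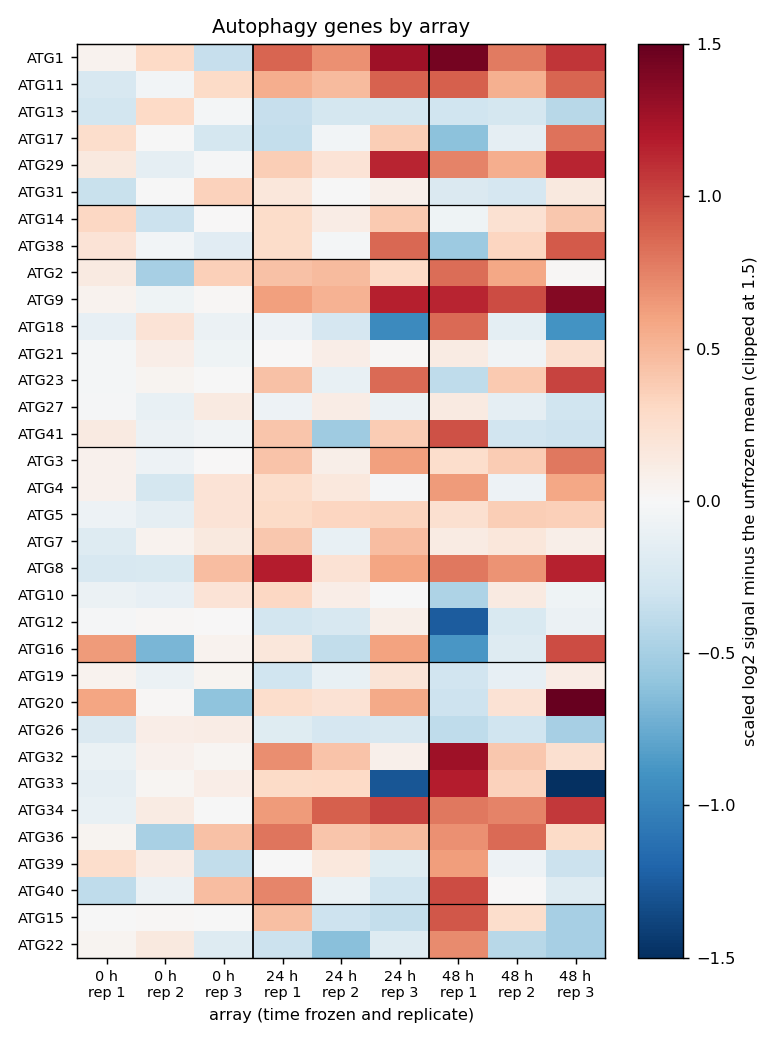
Scaled log2 signal minus the mean of the unfrozen arrays for each autophagy gene (rows, grouped by role and divided by lines) on each of the 9 arrays (columns, by time frozen and replicate). Red is above and blue below the unfrozen mean, with the colour clipped at 1.5. ATG1, ATG9, ATG11, ATG29 and ATG34 are red on all 6 frozen arrays, while ATG18 and ATG33 are blue in replicate 3 and red in replicate 1 of the 48 h group.

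The Atg1 kinase complex and its scaffolds had 6 members. ATG1, the kinase itself, had signals of 4.83, 5.09 and 4.43 in unfrozen arrays, 5.66, 5.48 and 6.06 after 24 h and 6.22, 5.56 and 5.86 after 48 h. All 6 frozen arrays lay above all unfrozen ones. The differences of 0.94 ± 0.28 at 24 h and 1.10 ± 0.28 at 48 h did not pass (SE, n = 3 per group, limma adjusted p = 0.202 and 0.0744). In linear terms the 48 h mean was 2.14 times the unfrozen mean.

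ATG11, the scaffold that links cargo receptors to the Atg1 complex, had 6.49, 6.69 and 7.02 in unfrozen arrays, 7.28, 7.20 and 7.62 after 24 h and 7.63, 7.26 and 7.60 after 48 h. Again the frozen and unfrozen arrays did not overlap. Its differences were 0.64 ± 0.20 at 24 h and 0.77 ± 0.20 at 48 h (limma adjusted p = 0.233 and 0.0865). With the rRNA signal as a covariate ATG11 stood at 0.17 and 0.34, and under whole-array scaling at 0.31 and 0.43. ATG1 stood at 0.60 and 0.79 with the covariate and at 0.62 and 0.76 under whole-array scaling.

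ATG29, a subunit of the scaffold formed with Atg17 and Atg31, had 5.78, 5.50 and 5.62 in unfrozen arrays, 5.99, 5.84 and 6.78 after 24 h and 6.38, 6.17 and 6.77 after 48 h. It too was above every unfrozen array on every frozen one, with replicate 3 the highest in both frozen groups. Its differences were 0.57 ± 0.28 and 0.81 ± 0.28 (limma adjusted p = 0.51 and 0.179). The partners of ATG29 did not share this separation. ATG17 stood at -0.01 ± 0.35 and 0.02 ± 0.35, and ATG31 at 0.08 ± 0.20 and -0.11 ± 0.20, at 24 h and 48 h. ATG13, the regulatory subunit of the kinase whose phosphorylation state follows nutrient signals, stood at -0.29 ± 0.17 and -0.32 ± 0.17. The signs of these last 3 genes turned in at least 1 of the 4 scalings of the arrays.

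The Atg9 vesicles and the proteins that bind phosphoinositides or serve Atg9 traffic had 7 members. ATG9 had signals of 5.15, 5.03 and 5.12 in unfrozen arrays, 5.71, 5.63 and 6.27 after 24 h and 6.24, 6.09 and 6.48 after 48 h. The unfrozen arrays lay close together, below all 6 frozen ones. ATG9 rose at 48 h by 1.17 ± 0.24, a linear ratio of 2.24 (limma adjusted p = 0.0307). At 24 h its difference was 0.77 ± 0.24 (limma adjusted p = 0.216), and frozen 48 h exceeded frozen 24 h by 0.40 ± 0.24, which did not pass.

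The call of ATG9 at 48 h was made in 9 of 23 alternatives, with differences from 0.83 to 1.59. The filter and probe set alternatives among these could not change its difference, as ATG9 had 1 probe set above both filters. The call ended without frozen 48 h replicates 1, 2 or 3 (adjusted p = 0.051, 0.076 and 0.0699) and without unfrozen replicates 1, 2 or 3 (0.117, 0.138 and 0.0649). With the rRNA signal as a covariate the difference was 0.86 and limma called 0 genes in all at 48 h.

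None of the other vesicle and lipid-binding members passed at either time. ATG2, a lipid transfer protein at the edge of the growing membrane, stood at 0.40 ± 0.30 at 24 h and 0.48 ± 0.30 at 48 h. ATG23, which with Atg27 aids Atg9 traffic, stood at 0.39 ± 0.35 and 0.34 ± 0.35, and ATG27 at -0.02 ± 0.18 and -0.10 ± 0.18. ATG41, which binds Atg9, stood at 0.09 ± 0.36 and 0.12 ± 0.36. The phosphoinositide-binding proteins ATG18 and ATG21 stood at -0.43 ± 0.39 and 0.04 ± 0.14 at 24 h, and at -0.07 ± 0.39 and 0.10 ± 0.14 at 48 h. Of these genes, ATG21, ATG27 and ATG41 changed sign with the scaling at both times and ATG18 at 48 h.

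ATG14 and ATG38 belong to the phosphatidylinositol 3-kinase complex that acts in autophagy. ATG14 targets it to the site of membrane formation and ATG38 stabilises it. ATG14 stood at 0.26 ± 0.22 at 24 h and 0.19 ± 0.22 at 48 h, and ATG38 at 0.37 ± 0.35 and 0.23 ± 0.35, with overlapping arrays. Each of these values but that of ATG38 at 24 h turned below 0 under whole-array scaling.

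**Figure D3:**
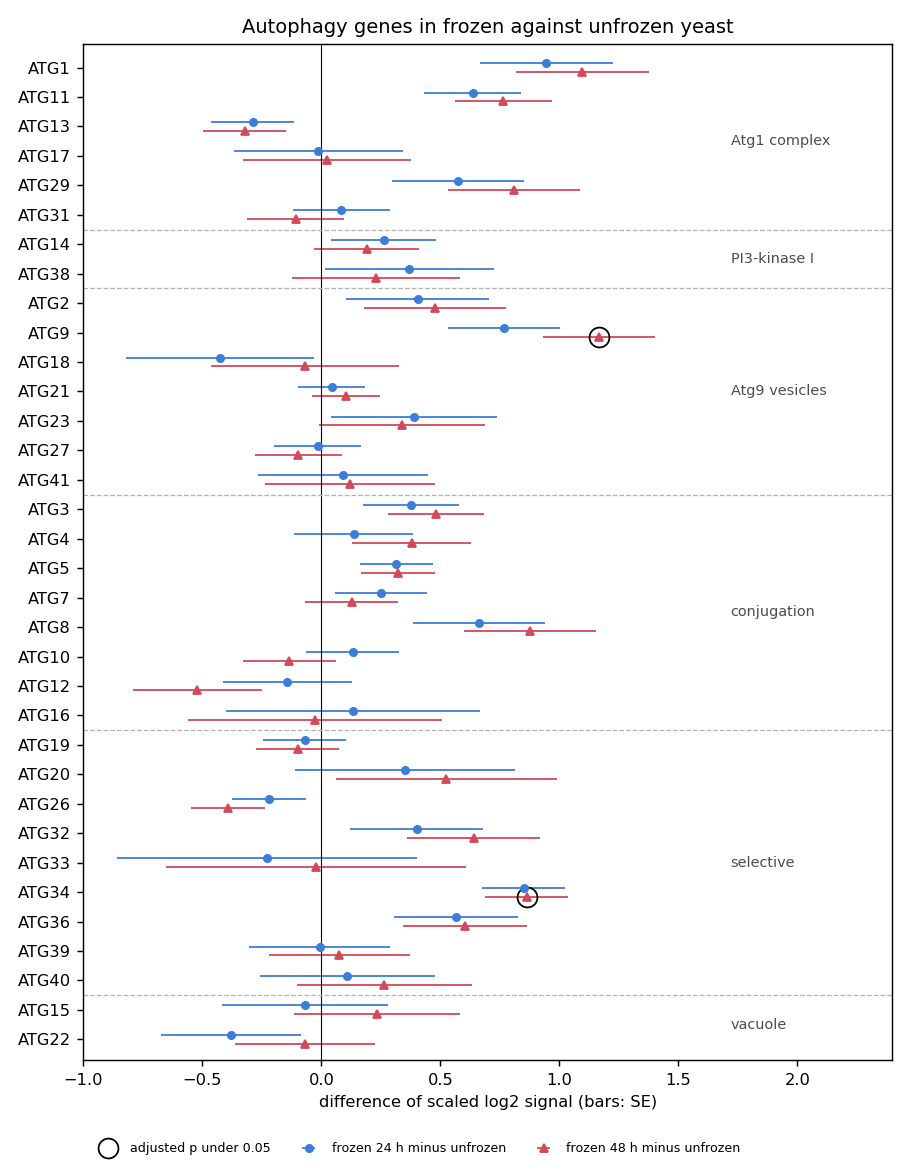
Difference of the frozen 24 h (circles) and frozen 48 h (triangles) means from the unfrozen mean in scaled log2 signal (x axis, bars are SE) for the 34 autophagy genes by role (y axis). Rings mark an adjusted p under 0.05, met at 48 h by ATG9 (1.17) and ATG34 (0.86). Of the 34 signs, 19 at 24 h and 20 at 48 h differed between the 4 scalings of the arrays.

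The ubiquitin-like conjugation systems had 8 members, and 0 passed at 24 h or 48 h. At an unadjusted p under 0.05, 1 and 2 were higher, against 6.8% and 9.95% of all genes. ATG8, which encodes the protein bound to the autophagosome membrane, had 8.11, 8.12 and 8.81 in unfrozen arrays, 9.52, 8.56 and 8.95 after 24 h and 9.15, 9.02 and 9.51 after 48 h. Unfrozen replicate 3 lay above frozen 24 h replicate 2, so those groups overlapped, but the 48 h arrays were above all unfrozen ones. The differences were 0.66 ± 0.28 and 0.88 ± 0.28 (limma adjusted p = 0.419 and 0.145), and stayed above 0 in all 4 scalings.

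ATG3, the enzyme that joins Atg8 to lipid, had 6.84, 6.71 and 6.78 in unfrozen arrays, 7.20, 6.87 and 7.39 after 24 h and 7.05, 7.16 and 7.56 after 48 h. Frozen and unfrozen arrays did not overlap, though unfrozen replicate 1 and frozen 24 h replicate 2 lay close. Its differences were 0.38 ± 0.20 and 0.48 ± 0.20 (limma adjusted p = 0.565 and 0.275). ATG5, to which Atg12 is joined, had 10.14, 10.075 and 10.42 in unfrozen arrays, 10.50, 10.54 and 10.54 after 24 h and 10.45, 10.58 and 10.57 after 48 h. The frozen arrays were again all above the unfrozen ones, and its differences were 0.32 ± 0.15 at both times (limma adjusted p = 0.513 and 0.335). Under whole-array scaling they were -0.0096 at 24 h and -0.016 at 48 h.

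ATG12, the second ubiquitin-like protein, moved the other way without passing. It had 8.60, 8.63 and 8.62 in unfrozen arrays, 8.34, 8.38 and 8.70 after 24 h and 7.37, 8.39 and 8.52 after 48 h. The 48 h arrays were all below the unfrozen ones, most of all replicate 1, for a difference of -0.52 ± 0.27 (limma adjusted p = 0.382). The other members had overlapping arrays. ATG4, the protease that processes Atg8, stood at 0.14 ± 0.25 at 24 h and 0.38 ± 0.25 at 48 h. ATG7, the activating enzyme of both systems, stood at 0.25 ± 0.19 and 0.13 ± 0.19. ATG10, which joins Atg12 to Atg5, stood at 0.13 ± 0.20 and -0.13 ± 0.20, and ATG16, which binds the Atg12-Atg5 conjugate, at 0.13 ± 0.53 and -0.03 ± 0.53.

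Receptors and other factors of selective autophagy had 9 members. ATG34 had 6.57, 6.81 and 6.68 in unfrozen arrays, 7.33, 7.58 and 7.70 after 24 h and 7.47, 7.43 and 7.75 after 48 h. All 6 frozen arrays lay above the 3 unfrozen ones. ATG34 rose at 48 h by 0.86 ± 0.17, a linear ratio of 1.82 (limma adjusted p = 0.0307), and stood at 0.85 ± 0.17 at 24 h (limma adjusted p = 0.0556). The 48 h and 24 h means differed by 0.01 ± 0.17. ATG19, the receptor of the Cvt pathway and the neighbour of ATG34 in the RefSeq table of assembly R64, stood at -0.07 ± 0.17 at 24 h and -0.10 ± 0.17 at 48 h, with signs that turned between scalings. ATG19 had 8.15, 8.02 and 8.14 in unfrozen arrays, 7.81, 7.99 and 8.30 after 24 h and 7.82, 7.98 and 8.21 after 48 h, so its groups overlapped.

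The 48 h call of ATG34 was made in 9 of 23 alternatives, with differences from 0.53 to 1.29. As for ATG9, the filter and probe set alternatives among these could not change its difference. The call ended without frozen 24 h replicate 2 (adjusted p = 0.0594), frozen 48 h replicates 2 or 3 (0.0778 and 0.065) and unfrozen replicates 1, 2 or 3 (0.159, 0.105 and 0.0652). With the rRNA signal as a covariate the difference was 0.55. In the fit of the 24 h and unfrozen arrays alone ATG34 passed at 24 h (0.85, limma adjusted p = 0.036). The fit of the 48 h and unfrozen arrays alone did not call it at 48 h (limma adjusted p = 0.0826). ATG34 also passed at 24 h without frozen 48 h replicates 1 or 3 (0.0358 and 0.038).

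**Figure D4:**
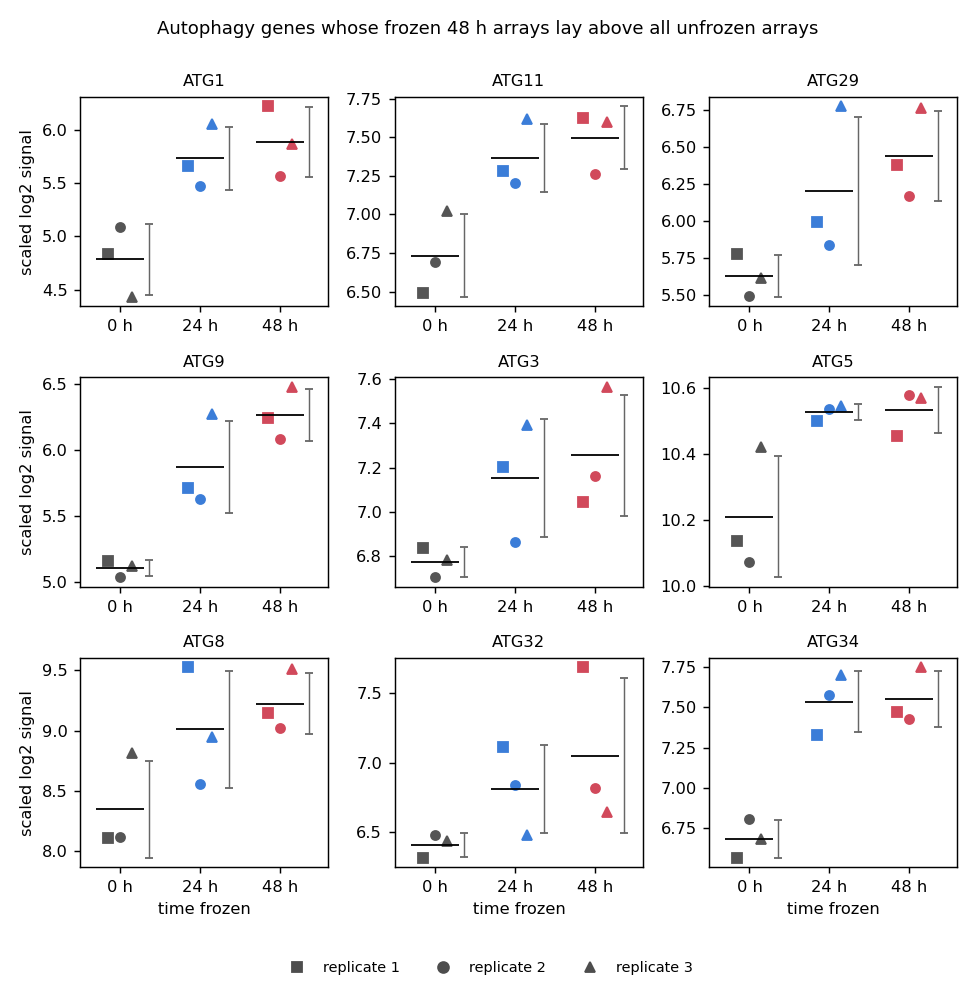
Scaled log2 signal (y axis, its own range in each panel, not starting at 0) by time frozen (x axis) for the 9 autophagy genes whose frozen 48 h arrays were all above the unfrozen arrays. Symbols are replicate numbers, horizontal lines are means and side bars are the SD of 3 arrays. In all but ATG8 the 24 h arrays were above the unfrozen ones too, and ATG9 and ATG34 are the 2 that passed the test at 48 h.

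ATG32, the receptor for the removal of mitochondria, had 6.32, 6.48 and 6.44 in unfrozen arrays, 7.11, 6.84 and 6.48 after 24 h and 7.68, 6.82 and 6.65 after 48 h. The frozen arrays were above the unfrozen ones, though frozen 24 h replicate 3 only barely. Its differences were 0.40 ± 0.28 and 0.64 ± 0.28 (limma adjusted p = 0.698 and 0.291). ATG36, the receptor for peroxisomes, stood at 0.57 ± 0.26 and 0.60 ± 0.26 with overlapping arrays (limma adjusted p = 0.486 and 0.287). The receptors for the nucleus and endoplasmic reticulum differed less from unfrozen. ATG39 stood at -0.01 ± 0.30 and 0.07 ± 0.30, and ATG40 at 0.11 ± 0.37 and 0.26 ± 0.37.

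ATG26, a sterol glucosyltransferase, had 7.63, 7.94 and 7.96 in unfrozen arrays, 7.66, 7.60 and 7.60 after 24 h and 7.46, 7.54 and 7.34 after 48 h. The 48 h arrays lay below all unfrozen and all 24 h arrays. Its difference at 48 h was -0.39 ± 0.15 (limma adjusted p = 0.245), while under whole-array scaling ATG26 was the 1 autophagy gene called, at -0.73 (adjusted p = 0.0496), and in the values as deposited it stood at 0.029. ATG33, a mitochondrial outer membrane protein of mitophagy, varied most among the frozen arrays. It had 7.87, 8.03 and 8.10 in unfrozen arrays, 8.28, 8.30 and 6.72 after 24 h and 9.18, 8.35 and 6.40 after 48 h. Its SD was 0.12 in unfrozen arrays, 0.91 after 24 h and 1.42 after 48 h, and replicate 3 was the low array in both frozen groups. Its differences were -0.23 ± 0.63 and -0.02 ± 0.63. ATG20, a sorting nexin, stood at 0.35 ± 0.46 and 0.53 ± 0.46 with an SD of 1.03 at 48 h.

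Breakdown and efflux at the vacuole had 2 members. ATG15, the lipase that opens the delivered membranes, stood at -0.07 ± 0.35 at 24 h and 0.23 ± 0.35 at 48 h. ATG22, a permease that exports amino acids from the vacuole, stood at -0.38 ± 0.29 and -0.07 ± 0.29. Neither passed, and both groups of frozen arrays overlapped the unfrozen ones.

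Counted over all roles, 8 genes were above every unfrozen array on all 3 arrays of the 24 h group, or 23.5% against 12.2% of all genes, and 0 were below every one (11.6% of all genes). At 48 h the counts were 9 above, or 26.5% against 11.9%, and 2 below, or 5.88% against 10.6%. On all 6 frozen arrays 8 genes were above every unfrozen array, namely ATG1, ATG3, ATG5, ATG9, ATG11, ATG29, ATG32 and ATG34, and 0 below, where 8.21% and 5.71% of all genes were so. These counts are a description, as the genes were chosen with earlier results of these data known, and the rRNA signal separated the same arrays.

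Between 48 h and 24 h frozen 0 of 34 genes passed, as did 0% of all genes by limma. At an unadjusted p under 0.05 there were 0 autophagy genes, beside 13 higher and 9 lower over all genes (0.241% and 0.167%). Differences ran from -0.38 for ATG12 to 0.40 for ATG9 with a median of 0.05 (0.01 over all genes). That median was -0.0066 without frozen 48 h replicate 1 and 0.095 without frozen 48 h replicate 2, and over 24 alternatives it minus the median of all genes ran from -0.060 to 0.12. Here too a shift of whole arrays could not change that gap. Above 0 were 22 genes, against 52.3% of all genes, and 0 differed by at least 1, against 0.0927%. No autophagy gene had its 48 h arrays above its 24 h arrays, as 1.59% of all genes did. ATG26 was the 1 gene whose arrays did not overlap, lower at 48 h by 0.17 ± 0.15, where 1.3% of all genes were lower in this way.

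Genes around the core machinery were read from lists in the same fit. Over all genes 1% were called at 24 h and 2.91% at 48 h, with median differences of -0.02 and -0.03. The median over all genes was -0.34 and -0.37 under whole-array scaling and 0.28 and 0.40 in the values as deposited. List values are those of the scaled log2 signal unless stated, and the signs of small ones can turn with the scaling. The list of vacuolar hydrolases and cargo held 12 genes, among them YPS1, a protease of the cell surface and not of the vacuole, and PBI2, an inhibitor of proteinase B. At 24 h 0 of 12 rose, against 0.797% of all genes, and at 48 h 3 did, against 2.09%. The median difference was 0.20 at 24 h and 0.55 at 48 h, with 10 and 11 genes above 0, against 47.3% and 47% of all genes. YPS1 stood at 0.17 ± 0.35 and 0.50 ± 0.35. APE1, aminopeptidase I, is the main cargo of the Cvt pathway. It had 7.28, 7.28 and 7.08 in unfrozen arrays, 7.82, 8.27 and 8.10 after 24 h and 8.56, 8.47 and 8.25 after 48 h. Both frozen groups lay above the unfrozen arrays, while the 24 h and 48 h arrays overlapped each other. APE1 rose at 48 h by 1.21 ± 0.17 (limma adjusted p = 0.00584), in 20 of 23 alternatives. At 24 h it stood at 0.85 ± 0.17 (limma adjusted p = 0.0547).

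AMS1, the alpha-mannosidase that Atg34 and Atg19 carry, had 5.35, 5.77 and 5.96 in unfrozen arrays, 6.90, 6.63 and 6.62 after 24 h and 6.85, 6.58 and 6.61 after 48 h. All frozen arrays lay above the unfrozen ones. AMS1 rose at 48 h by 0.99 ± 0.21 (limma adjusted p = 0.0405), in 7 of 23 alternatives, and stood at 1.02 ± 0.21 at 24 h (limma adjusted p = 0.058). Its call ended without any 1 of 8 arrays (adjusted p from 0.0577 to 0.178) and held without unfrozen replicate 3 (0.0365).

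PRB1, the vacuolar proteinase B, had 7.22, 7.09 and 7.35 in unfrozen arrays, 8.13, 8.05 and 8.12 after 24 h and 9.18, 8.28 and 8.08 after 48 h. It rose at 48 h by 1.29 ± 0.25 (limma adjusted p = 0.0265), in 13 of 23 alternatives, and stood at 0.88 ± 0.25 at 24 h (limma adjusted p = 0.185). Its call ended without frozen 24 h replicate 2 (adjusted p = 0.0535), frozen 48 h replicate 2 (0.0647) or any unfrozen replicate (0.113, 0.138 and 0.0508). PEP4, proteinase A, which activates the other vacuolar hydrolases, stood at 0.22 ± 0.37 and 0.64 ± 0.37, and PRC1, carboxypeptidase Y, at -0.03 ± 0.30 and 0.22 ± 0.30. With the rRNA signal as a covariate, under which limma called 0 of all genes, APE1, AMS1 and PRB1 stood at 1.13, 0.87 and 1.13 at 48 h. In the fit of the 24 h and unfrozen arrays alone APE1, AMS1 and PRB1 were called at 24 h (limma adjusted p = 0.0327, 0.0483 and 0.0136). The fit of the 48 h and unfrozen arrays alone called APE1 (limma adjusted p = 0.018) but not AMS1 (0.108) or PRB1 (0.083). Without frozen 48 h replicate 1 all of APE1, AMS1 and PRB1 were called at 24 h (0.0302, 0.0389 and 0.0109). APE1 and AMS1 were also called at 24 h without frozen 48 h replicate 3 (0.0367 and 0.0459), and AMS1 without unfrozen replicate 3 (0.0432). These 3 genes were singled out after their values were seen.

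**Figure D5:**
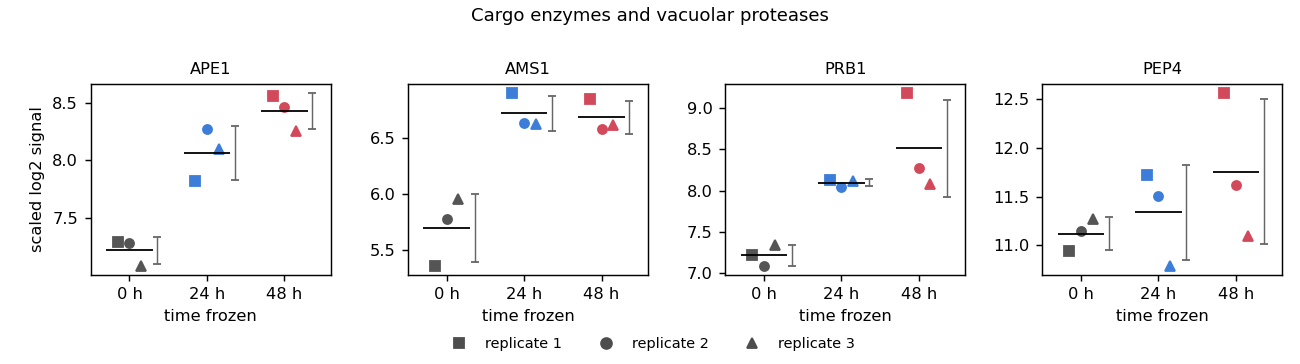
Scaled log2 signal (y axis, its own range in each panel, not starting at 0) by time frozen (x axis) of the cargo enzymes APE1 and AMS1 and the vacuolar proteases PRB1 and PEP4. Symbols are replicate numbers, horizontal lines are means and side bars are the SD of 3 arrays. The frozen arrays of APE1, AMS1 and PRB1 lie above all unfrozen ones (differences at 48 h of 1.21, 0.99 and 1.29), while those of PEP4 overlap them.

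The partners of ATG14 in the lipid kinase and related sorting nexins had 0 of 6 called at either time, with medians of 0.27 and 0.27. VPS34, the catalytic subunit of the kinase, stood at 0.39 ± 0.21 and 0.60 ± 0.21 (limma adjusted p = 0.556 and 0.182). VPS30, shared by both forms of the kinase, stood at 0.28 ± 0.25 and 0.18 ± 0.25. VPS38, which replaces Atg14 in the form that acts in vacuolar sorting, stood at -0.31 ± 0.18 and -0.16 ± 0.18.

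TORC1 is a kinase that restrains autophagy in fed cells. The list of its subunits, its amino acid sensors and factors linked to it (SCH9, NPR1, SIT4, TAP42 and TIP41) had 0 of 22 genes called. Medians were -0.03 at 24 h and 0.02 at 48 h, with a range from -0.46 to 0.36 over both times. TOR1 stood at -0.46 ± 0.22 and -0.39 ± 0.22. Transcription regulators of autophagy genes had 0 of 17 called and medians of -0.03 and 0.02. UME6, a repressor of ATG8, stood at -0.15 ± 0.28 and -0.02 ± 0.28, and RPH1, another repressor of autophagy genes, at 0.24 ± 0.16 and 0.33 ± 0.16. GAT1, a GATA-type activator under nitrogen control, stood lowest at -1.19 ± 0.41 and -0.96 ± 0.41 (limma adjusted p = 0.293 and 0.287).

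The Rab cascade and fusion machinery joins autophagosomes to the vacuole. Of 17 listed genes 15 were read, while VPS11 and VPS18 had no match by symbol among the genes tested. None was called by limma. At an unadjusted p under 0.05 there were 0 at 24 h and 3 lower at 48 h, where 6.45% of all genes were lower. Medians were -0.14 and -0.25, beside -0.02 and -0.03 over all genes. VAM3, a vacuolar SNARE, stood at -0.64 ± 0.29 and -0.87 ± 0.29 (limma adjusted p = 0.471 and 0.165). YPT7, the Rab GTPase of the vacuole, stood at -0.38 ± 0.22 and -0.54 ± 0.22, with its frozen arrays below all unfrozen ones at both times. Other factors of selective autophagy had 0 of 17 called. SLT2, a kinase of the cell wall integrity pathway with a role in mitophagy and pexophagy, stood highest among them at 0.54 ± 0.21 and 0.76 ± 0.21 (limma adjusted p = 0.381 and 0.103).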

How the data were processed

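The deposited tables give each probe set a linear intensity, made with GCOS per the submitters' processing notes, which give no version. Per the labels, GeneSpring 7.3.1 scaled chips to the 50th percentile and divided genes by unfrozen samples, but the array medians differ and no ratio is seen in the deposited values. All 9 columns were used, and no pair of arrays shared more than 0.00915% of identical values. Over genes, arrays of 1 group correlated at 0.898 to 0.988 and arrays of different groups at 0.91 to 0.991.

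Symbols came from the platform annotation, brought up to date by gene ID with RefSeq names (assembly R64). No coordinates or sequences are given, since the files name no genome build and no sequence table was used, so the motif search that was planned was not run. Intensities were taken to log2 and every array was shifted to 1 median, taken over 5498 S. cerevisiae probe sets. Those whose mean exceeded 2.21, the 95th percentile over 1746 probe sets for S. pombe, were kept, and the brightest stood for its gene. Groups were compared with limma 3.58.1 in R 4.3.3 on all 9 arrays (eBayes with a trend, two-sided, Benjamini-Hochberg over 5396 genes). The procedure was tested on simulated data, drawn independently for each gene and array. For frozen 24 h against unfrozen it recovered 14% of 1.5-fold and 47.4% of 2-fold changes. A gene that did not pass is therefore not shown to be unchanged. The number of arrays limits the precision.

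Described in full are genes past the threshold and the 4 with the smallest p at 24 h and at 48 h, which gave ATG1, ATG9, ATG11 and ATG34. Values by array of other genes were added after seeing them, where arrays did not overlap or stood far apart, and for ATG19. The members, lists and rules were chosen with earlier results of these data known. By the data, not the labels, replicate numbers paired 24 h with 48 h arrays (correlations of deviations from group means 0.589, 0.389 and 0.793), but not the frozen and unfrozen arrays (-0.382 to 0.247). Alternatives were other scalings, filters and probe set choices, no trend, a fit of the compared groups alone, a replicate block, an rRNA covariate and each array or replicate number left out. Leaving out replicate 3 of both frozen groups and a block on the frozen arrays alone were added after seeing the data.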

Additional observations from a re-analysis of the deposited data

How the results depend on the processing

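At 24 h the count of autophagy genes called was 1 instead of 0 with only the groups compared and with the replicate block, ATG34 each time (adjusted p = 0.036 and 0.0378 by limma). Over all genes 2.19% and 2.09% were called in these fits. At 48 h the count of 2 became 1 under quantile normalization (ATG34), 1 under whole-array scaling (ATG26, lower) and 1 with both bright frozen arrays left out (ATG9). It was 0 in the values as deposited, with only the groups compared and with the rRNA covariate. Of all genes 2.61% were called under quantile normalization and 4.91% under whole-array scaling. The share was 1% in the values as deposited, 1.56% with only the groups compared and 0% with the rRNA covariate. The count stayed at 2 with no filter, the stricter filter, the mean of probe sets, no trend and the replicate block, which called 2.76% to 3.91% of all genes. The filters and the mean of probe sets could not change the differences, as each autophagy gene had 1 probe set above both thresholds. Their counts are therefore no added support. Leaving out an array or replicate number gave 0 to 1 at 24 h and 0 to 2 at 48 h, and 0 for 48 h against 24 h, where the block on the frozen arrays alone also gave 0. Over all genes the fits with an array or number left out called 0 to 126 at 24 h and 0 to 232 at 48 h. The median difference was 0.43 in the values as deposited and -0.19 under whole-array scaling at 24 h, 0.63 and -0.13 at 48 h, and 0.18 as deposited for 48 h against 24 h. Without 1 array or number it ran from 0.085 to 0.32 at 24 h. For 48 h against 24 h the sign of ATG34 turned under whole-array scaling (-8.95e-05) and without both bright arrays (-0.0035). Leave-one-out values ran from -0.090 to 0.096 for ATG34 and from -0.052 to 0.32 for ATG1. The causes were not tested. At 24 h APE1 was called with the replicate block (limma adjusted p = 0.0457), and AMS1 without a trend (0.0478). The planned promoter motif search was not run.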

Other observations

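In part of the autophagy genes, as in all genes, the same replicate number was the extreme array of both frozen groups. Replicate 3 was the highest in both in 12 of 34 genes and the lowest in 8, against 23.6% and 38.3% of all genes. Replicate 1 was the highest in both in 6 and the lowest in 4, against 24.9% and 19% of all genes, and replicate 2 in 1 and 6, against 8.91% and 8.82%. ATG15, ATG18, ATG32 and ATG40 had replicate 1 highest and replicate 3 lowest in both frozen groups, and ATG12, ATG17 and ATG19 had the reverse. ATG18 was at 7.18, 7.01 and 6.30 in frozen 24 h replicates 1, 2 and 3 and at 8.10, 7.10 and 6.35 in frozen 48 h replicates 1, 2 and 3. ATG17 was at 5.76, 6.07 and 6.48 at 24 h and at 5.51, 5.98 and 6.93 at 48 h. The median SD of autophagy genes was 0.183 in unfrozen arrays, 0.238 after 24 h and 0.315 after 48 h, beside 0.164, 0.235 and 0.364 over all genes.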
